A study of Mus musculus with 7 samples.

Results

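The genes described here are 10 genes of mineral formation: the enzymes Alpl, Phospho1, Enpp1 and Smpd3, the transporters Ank, Slc20a1 and Slc20a2, and the secreted proteins Mgp, Stc1 and Stc2. They were taken by gene symbol, and each was represented by its probe set (the group of array probes that reads 1 transcript) with the highest mean over all arrays. Of the 10 genes 8 could be measured, by 13 probe sets, among 12393 genes in all. No probe set with Enpp1 as its symbol was among those analysed here, and the 1 probe set for Phospho1 also carries a second gene's symbol and was left out.

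The study sorted bone cells from double transgenic mice, OsxCre-mCherry;OcnCre-Topaz, in which osteocalcin-marked cells are green (Ocn+) and osterix-marked cells are red (Osx+). Mature osteoblasts secrete osteocalcin into the matrix, and osterix is the transcription factor that commits cells to bone formation. There were 3 arrays of Ocn+ cells and 4 of Osx+ cells, which came from the bone marrow stroma of mice 4 to 6 weeks old, 6 days after tamoxifen, so both groups carry both transgenes and the tamoxifen treatment. Each colour reports the activity of its promoter-driven transgene and not the protein itself. The sorted cells that carried both colours are not analysed here, the labels do not say how many animals an array represents, and p-values therefore measure the spread between these arrays, which may be technical.

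Mineral is first laid down in vesicles shed by osteoblasts and then spreads along collagen. Its growth depends on the balance between phosphate, which builds the crystal, and pyrophosphate, which blocks it. Enpp1 makes pyrophosphate from nucleotides outside the cell, Ank brings nucleotide or pyrophosphate out of the cell, and Alpl, tissue-nonspecific alkaline phosphatase, breaks pyrophosphate down. Smpd3, a neutral sphingomyelinase, and Phospho1, a phosphatase of phosphocholine, act in sequence to release phosphate, and Slc20a1 and Slc20a2 (PiT-1 and PiT-2) carry phosphate into cells. Matrix Gla protein, Mgp, keeps cartilage and arteries free of mineral, and the stanniocalcins Stc1 and Stc2 are secreted glycoproteins named for calcium control in fish.

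In Ocn+ arrays Stc1 stood 2.58-fold higher than in Osx+ arrays and Stc2 stood 2.39-fold lower, while the group means of Alpl and of Mgp were within 1.09-fold. Ank, Slc20a2 and Smpd3 had means above and Slc20a1 a mean below those of the Osx+ arrays, by 1.34-fold to 1.77-fold. None of the 8 measured genes passed the test over all genes, limma with Benjamini-Hochberg adjustment and a threshold of 0.05, and the smallest adjusted p among them was 0.789, for Stc2. The same test called 0% of all genes, with 658 of 12393 genes at an unadjusted p under 0.05 and 2 of the 8 among these, Stc1 and Stc2. The median difference of the 8 genes was 0.35 log2 units and that of all genes 0.02.

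**Figure D1:**
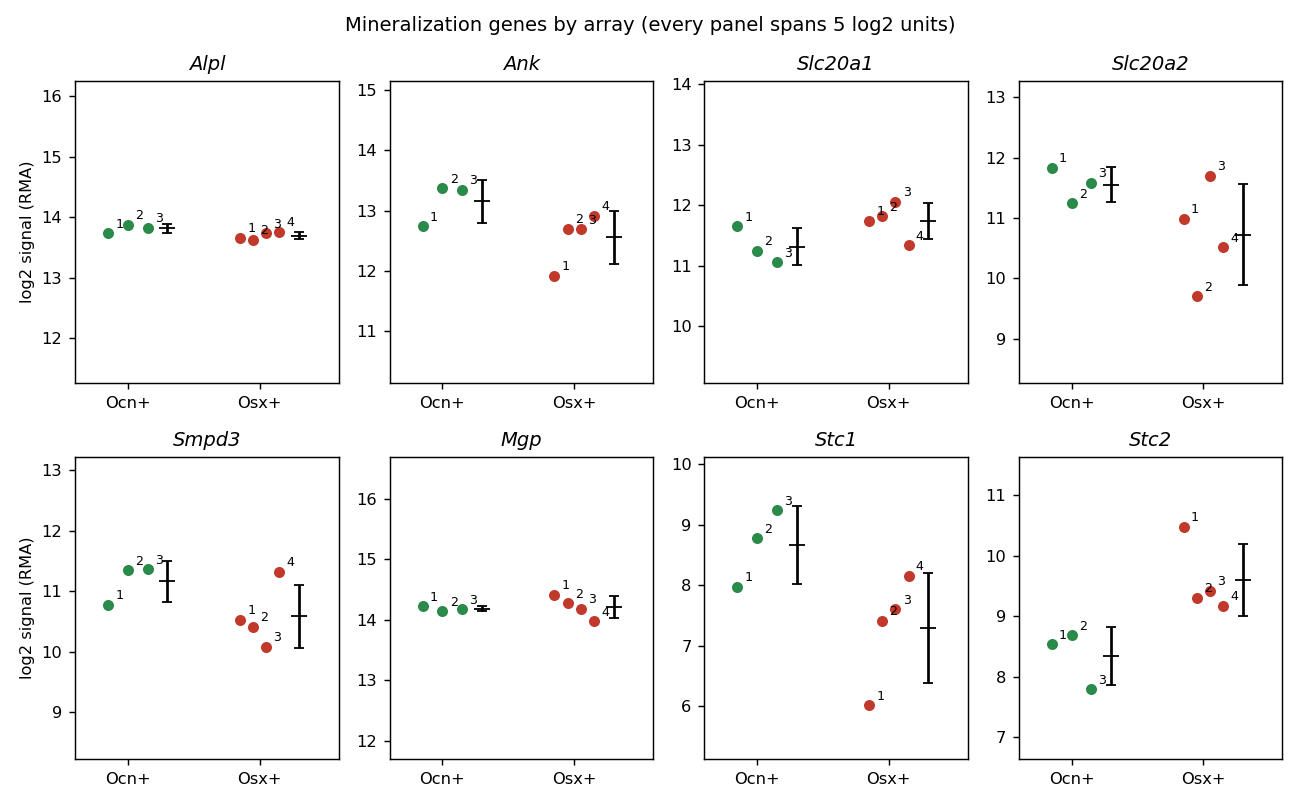
Log2 signal of the 8 measured genes in each array, with Ocn+ arrays (green) left of Osx+ arrays (red), replicate numbers beside the points and black marks for the mean ± SD (n = 3 and n = 4). Alpl and Mgp lie in narrow bands in both groups, Stc1 and Stc2 spread over 3.23 and 2.69 log2 units, and Stc2 is the gene whose groups do not overlap.

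RefSeq promoter windows, which run from 250 bases before to 50 bases after a gene's start, were at hand for Alpl, Ank, Slc20a1 and Stc2 on build GRCm38.p6. The windows of Ank and Stc2, whose group means lay on opposite sides, and of the first of 2 listed starts of Alpl, whose signal was nearly level, are shown 5′ to 3′ on the gene's strand. Capitals mark matches on either strand to GGGCGG, the GC box that zinc fingers of the Sp family can bind. The Ank window is chr15:27466427-27466726 (+ strand), the Stc2 window chr11:31370012-31370311 (− strand) and the Alpl window chr4:137796335-137796634 (− strand).
Ank: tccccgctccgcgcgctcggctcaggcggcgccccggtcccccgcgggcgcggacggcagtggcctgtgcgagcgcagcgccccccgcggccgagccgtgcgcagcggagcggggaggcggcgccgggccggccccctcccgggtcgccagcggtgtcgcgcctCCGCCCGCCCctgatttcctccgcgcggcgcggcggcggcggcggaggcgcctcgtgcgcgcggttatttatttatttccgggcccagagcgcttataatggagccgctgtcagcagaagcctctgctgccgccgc
Stc2: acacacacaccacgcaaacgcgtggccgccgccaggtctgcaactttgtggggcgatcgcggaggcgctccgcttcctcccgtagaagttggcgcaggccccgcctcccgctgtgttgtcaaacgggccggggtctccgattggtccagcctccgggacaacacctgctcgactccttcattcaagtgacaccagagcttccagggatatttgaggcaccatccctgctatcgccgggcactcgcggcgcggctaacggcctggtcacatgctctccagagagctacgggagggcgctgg
Alpl: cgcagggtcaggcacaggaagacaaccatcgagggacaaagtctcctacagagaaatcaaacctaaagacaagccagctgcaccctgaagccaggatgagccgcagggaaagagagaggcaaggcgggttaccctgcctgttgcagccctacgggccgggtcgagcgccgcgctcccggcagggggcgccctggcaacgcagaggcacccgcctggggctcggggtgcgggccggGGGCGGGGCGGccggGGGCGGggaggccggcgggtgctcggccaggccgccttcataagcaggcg
Positions are those of a match's first base on the printed strand, with -1 the last base before the start. The Ank window held 2 GC boxes on the opposite strand, at -86 and -82, the Alpl window 3, at -15, -10 and 1, and the Stc2 window 0. The boxes of Ank overlap each other by 2 bases, and the first 2 of Alpl by 1 base. Of all 32851 windows 35.7% held the GC box. The windows were also searched for TATAAA (13.6% of all windows), TGTGGT, a core bound by Runx factors (16.8%), and TGATGNAA, part of an element bound by ATF4 (3.97%), with 0 matches in these 3 windows. Of the windows not shown, the first of Slc20a1 held a TATAAA at -1, a TGTGGT at -77 and 2 GC boxes, the second of Slc20a1 held 1 GC box, and the second of Alpl held a TATAAA on the opposite strand at -192. The arrays read transcripts, so whether any of these letters is bound in the sorted cells was not tested.

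Alpl is the enzyme whose activity is used to stain osteoblasts. Its log2 signal was 13.73, 13.87 and 13.83 in Ocn+ arrays (replicates 1 to 3, the order kept below), against 13.66, 13.63, 13.73 and 13.76 in Osx+ arrays (replicates 1 to 4). Every array of both groups lay within a band of 0.25, and Ocn+ replicate 1 fell inside the Osx+ range. The Ocn+ mean was 13.81 ± 0.07 (SD, n = 3), against an Osx+ mean of 13.69 ± 0.06 (SD, n = 4). They differed by 0.12 (limma adjusted p = 0.999), with a 95% confidence interval from -0.20 to 0.44. Of all genes 65.0% had a larger absolute difference. The arrays' highest log2 signals were 15.27 to 15.38, and whether bright probe sets such as those of Alpl and Mgp are compressed near that top was not tested.

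Ank, the multipass membrane protein behind progressive ankylosis in mice, stood at 12.74, 13.37 and 13.35 in Ocn+ arrays, against 11.92, 12.70, 12.69 and 12.91 in Osx+ arrays. The upper 2 Ocn+ arrays exceeded every Osx+ array, and Ocn+ replicate 1 lay below Osx+ replicate 4. The difference was 0.60 log2 units (SE 0.29, 95% interval -0.09 to 1.28, limma adjusted p = 0.999), or 1.51-fold, and 10.8% of genes differed by more. Osx+ replicate 1 held the lowest value, and without it the difference was 0.38. The markers of bone-forming cells, 10 of 15 listed being measured, had list means of 13.00 to 13.50 in Ocn+ arrays, against 12.71 in that same Osx+ array and 13.12 to 13.51 in the other Osx+ arrays, and their part in the Ank signal was not tested. The marker list includes Alpl. In Osx+ replicate 1 Dmp1 (10.76) and Phex (7.79) lay furthest below their means over the 7 arrays, 12.39 and 10.58. Next was Sp7, at 12.28 against 12.55, while Col1a1 and Pth1r lay above their means. In sorted bulk cells fewer cells of a type and less RNA per cell cannot be told apart. The genes whose profile over the 7 arrays was nearest to that of Ank were Lbh and Trim32, with root mean square differences of 0.08 and 0.13 log2 units after centring.

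The phosphate importers stood on opposite sides. Slc20a1 (PiT-1), the type most studied in mineralizing cells, had log2 signals of 11.65, 11.25 and 11.05 in Ocn+ arrays, against 11.74, 11.82, 12.06 and 11.34 in Osx+ arrays. The groups overlapped through Osx+ replicate 4, which lay below Ocn+ replicate 1. The difference was -0.42 (SE 0.23, 95% interval -0.97 to 0.12, limma adjusted p = 0.999). The other Slc20a1 probe set was dimmer and showed another pattern, 7.03, 7.84 and 8.65 in Ocn+ arrays, against 6.60, 8.94, 7.36 and 8.47 in Osx+ arrays. Its group means differed by less than 0.01 and its spread within each group was 0.81 and 1.06 (SD), so the Slc20a1 difference is seen with 1 of the 2 probe sets. Nearest to the brighter one in profile were Steap1 and Mllt11 (root mean square difference 0.11 each).

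Slc20a2 (PiT-2), whose loss causes brain calcification in mice and people, stood at 11.83, 11.25 and 11.58 in Ocn+ arrays, against 10.99, 9.70, 11.70 and 10.51 in Osx+ arrays. Osx+ replicate 3 reached the Ocn+ level and the other Osx+ arrays lay below it. The difference was 0.83 (SE 0.45, 95% interval -0.23 to 1.89, limma adjusted p = 0.999), and without Osx+ replicate 2 it was 0.49. The other Slc20a2 probe set gave 8.71, 8.74 and 8.59 in Ocn+ arrays, against 7.97, 7.45, 8.32 and 8.03 in Osx+ arrays, without overlap. Its difference was 0.74 (SE 0.22), and its limma adjusted p over all probe sets was 0.903. The endothelial markers moved in the same arrays: their list mean was 9.56, 9.48 and 9.89 in Ocn+ arrays, against 7.70, 6.47, 9.06 and 6.96 in Osx+ arrays, with 15 of 15 markers above 0. Markers of mural cells, which lie around vessels, had list means of 10.17, 9.28 and 9.61 in Ocn+ arrays. In Osx+ arrays these were 9.31, 8.50, 10.04 and 8.59, and 8 of 13 mural markers were above 0. For Slc20a2, the endothelial list and the mural list alike, Osx+ replicate 3 was the highest and Osx+ replicate 2 the lowest Osx+ array. The genes nearest to Slc20a2 in profile were Ccm2l and Kank3 (root mean square difference 0.11 each). What part other cell types have in the Slc20a2 signal was not tested.

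**Figure D2:**
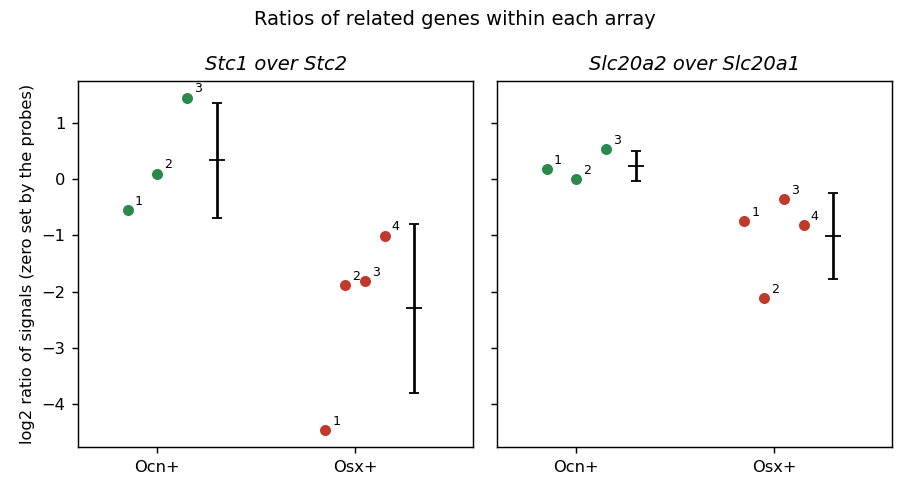
Log2 ratio of the brightest probe sets within each array, for Stc1 over Stc2 (left panel) and Slc20a2 over Slc20a1 (right panel), Ocn+ (green) left of Osx+ (red), with black marks for mean ± SD. In both panels all 3 Ocn+ arrays lie above all 4 Osx+ arrays, by group means 2.63 and 1.25 log2 units apart.

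Since a ratio within an array cancels whatever raises or lowers both genes together, the related genes were also compared as log2 ratios, a readout chosen after the members' values had been seen and made for 2 pairs. Both pairs join genes already seen to differ in opposite directions, which fixes the direction of each ratio. The zero of such a ratio depends on the probes, so only its difference between arrays is read. Slc20a2 over Slc20a1 was 0.18, 0.00 and 0.53 in Ocn+ arrays, against -0.75, -2.12, -0.36 and -0.82 in Osx+ arrays. The groups did not overlap, and the difference was 1.25, with a 2-sided exact permutation p of 0.0571, the smallest that 3 against 4 arrays can give. With the mean of each gene's probe sets it was 0.99 and the groups overlapped (exact permutation p = 0.171), and with the probe sets of largest variance it was 0.83 (exact permutation p = 0.571).

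Smpd3, the sphingomyelinase whose loss in mice leaves bone undermineralized, stood at 10.78, 11.35 and 11.37 in Ocn+ arrays, against 10.53, 10.41, 10.08 and 11.32 in Osx+ arrays. The first 3 arrays lay low in the Osx+ group, and Osx+ replicate 4 matched the brighter Ocn+ arrays. The difference was 0.58 (SE 0.32, 95% interval -0.17 to 1.33, limma adjusted p = 0.999), and without Osx+ replicate 4 it was 0.82. The other probe set ran the same way by less, at 8.98, 9.07 and 9.22 in Ocn+ arrays, against 8.93, 8.34, 8.66 and 9.22 in Osx+ arrays, a difference of 0.30 (SE 0.23). The list mean of bone-forming cell markers was also highest in Osx+ replicate 4, at 13.51, and its part in the Smpd3 signal was not tested. Nearest in profile were Mageh1 and Syt6, at root mean square differences of 0.10 and 0.14.

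Mgp was level between the groups. Its log2 signal was 14.22, 14.14 and 14.18 in Ocn+ arrays, against 14.42, 14.28, 14.19 and 13.98 in Osx+ arrays, so the Ocn+ values lay inside the Osx+ range. The difference was -0.03, with a 95% interval from -0.41 to 0.34, and 89.3% of genes differed by more. Its sign changed without Osx+ replicate 1 (0.03). Cartilage cells also make Mgp, and the 16 cartilage markers ranged in list mean from 9.82 to 11.38 in Ocn+ arrays, against 10.98 to 12.73 in Osx+ arrays, with 13 of 16 below 0. What part such cells have in the Mgp signal was not tested.

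The stanniocalcins, whose human proteins inhibit the protease PAPP-A, had the widest differences. Stc1 stood at 7.98, 8.78 and 9.24 in Ocn+ arrays, against 6.01, 7.42, 7.60 and 8.16 in Osx+ arrays. The groups overlapped by 1 array on each side, Ocn+ replicate 1 lying just below Osx+ replicate 4. The difference was 1.37 (SE 0.54, 95% interval 0.11 to 2.63, limma adjusted p = 0.935), and 1.48% of genes differed by more. Without Osx+ replicate 1, the dimmest, it was 0.94. The list mean of bone-forming cell markers was also lowest in that array, mostly through Dmp1 and Phex. Its distance from the mean over the 7 arrays was -0.50, where that of Stc1 was -1.87. The other Stc1 probe set lay near the floor of the arrays in every sample, from 3.44 to 3.64 in Ocn+ arrays and from 3.27 to 3.66 in Osx+ arrays, where the lowest signals of an array were 3.00 to 3.10. It therefore offers no second reading of Stc1. Bmp8a and Msi1 were nearest to Stc1 in profile, at root mean square differences of 0.26 and 0.28.

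Stc2 stood at 8.53, 8.69 and 7.80 in Ocn+ arrays, against 10.48, 9.30, 9.42 and 9.17 in Osx+ arrays. All Ocn+ arrays lay below all Osx+ arrays, with a gap of 0.49 between the groups, and Osx+ replicate 1 stood above the rest. The Ocn+ mean was 8.34 ± 0.48 (SD, n = 3), against an Osx+ mean of 9.59 ± 0.60 (SD, n = 4). They differed by -1.26 (SE 0.38, 95% interval -2.14 to -0.37, limma adjusted p = 0.789, exact permutation p = 0.0571), and 1.87% of genes differed by more. The other Stc2 probe set gave 8.02, 8.78 and 7.42 in Ocn+ arrays, against 8.12, 9.15, 9.63 and 8.91 in Osx+ arrays. It differed by -0.88 (SE 0.44), and its groups overlapped, since Osx+ replicate 1, the highest array by the brighter probe set, was the lowest Osx+ array by this one. The macrophage markers stood at -0.25, -1.40 and -0.32 from their mean over the 7 arrays in Ocn+ arrays, against 0.89, 1.06, 0.17 and -0.16 in Osx+ arrays. For the cartilage markers these distances were -0.05, 0.05 and -1.51 in Ocn+ arrays, against 0.77, 1.40, -0.30 and -0.35 in Osx+ arrays. The distance for Stc2 was 1.42 in Osx+ replicate 1 and -1.26 in Ocn+ replicate 3. What part these cell types have in the Stc1 and Stc2 signals was not tested. Chrna7 and Duoxa2 were nearest to Stc2 in profile, at root mean square differences of 0.23 and 0.31.

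Stc1 over Stc2 was -0.55, 0.10 and 1.45 in Ocn+ arrays, against -4.47, -1.89, -1.82 and -1.01 in Osx+ arrays. The groups did not overlap, and the difference was 2.63 (exact permutation p = 0.0571). It was 1.90 without Osx+ replicate 1, without overlap. With the mean of each gene's probe sets it was 1.80, a value that takes in the Stc1 probe set at the floor and is no second reading. The pair was formed after the opposite differences of its genes were known, and these fix the direction of the ratio.

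**Figure D3:**
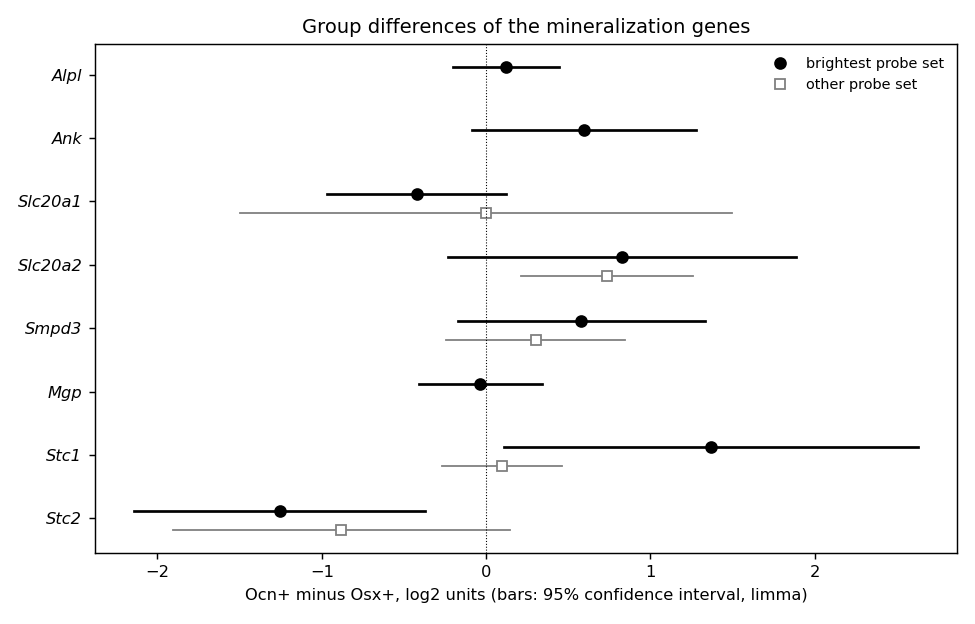
Ocn+ minus Osx+ difference in log2 units for each gene, with the 95% confidence interval from limma, for the brightest probe set (black) and the other probe set where there is one (grey). The intervals of Stc1 and Stc2 by the brightest probe set lie to either side of 0, and the remaining brightest probe sets have intervals that include 0.

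Of the 8 genes 0 were without overlap and higher in Ocn+ arrays, where 4.37% of all genes were, and 1 was without overlap and lower, Stc2, where 2.53% of all genes were. In Alpl, Ank, Slc20a1, Smpd3 and Stc1 the overlap came from Ocn+ replicate 1 and Osx+ replicate 4. With either of these arrays left out, the same 5 genes and Stc2 were without overlap, a count that the preceding values already fix. This alternative was added after the values were seen. Among all genes, 13.4% showed no overlap once Ocn+ replicate 1 was dropped, and 9.94% once Osx+ replicate 4 was dropped instead. These arrays stood on different sides of a division that runs through both groups. The X-inactivation transcript Xist had a log2 signal of 12.3 to 13.0 in Ocn+ replicates 2 and 3 and Osx+ replicates 2 and 4, and of 4.87 to 5.79 in Ocn+ replicate 1 and Osx+ replicates 1 and 3. Raw correlations over all genes between arrays did not follow this division throughout. Osx+ replicate 3 was correlated with Ocn+ replicate 2, of the other class, at 0.969 and with Osx+ replicate 1, of its own, at 0.959. Deviations from the group means did follow it in every pair of an Ocn+ and an Osx+ array. They were correlated at 0.41 to 0.63 within a class and at -0.30 to -0.68 between classes.

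The differences were also taken within each of these classes, from the same arrays as the overall values. Among the high-Xist arrays, 2 against 2, the difference was 1.22 for Stc1, -0.998 for Stc2, 1.31 for Slc20a2, 0.55 for Ank and 0.49 for Smpd3. Among the low-Xist arrays, 1 against 2, it was 1.17 for Stc1, -1.42 for Stc2, 0.49 for Slc20a2, 0.43 for Ank and 0.47 for Smpd3. With so few arrays 55.2% and 59.7% of all genes were without overlap in these classes, and 0 of the 8 genes passed in either. Mgp differed by 0.03 among the high-Xist and by -0.08 among the low-Xist arrays.

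**Figure D4:**
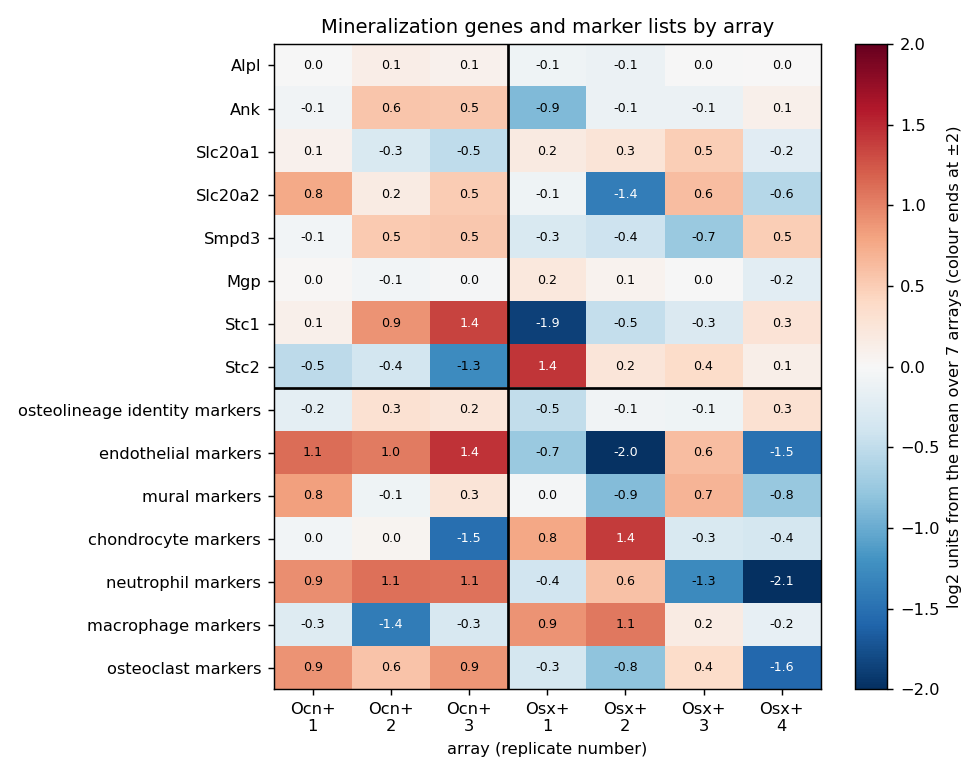
Log2 signal of the 8 genes (above the line) and list means of marker genes (below it) in each array, as the distance from the mean over 7 arrays, Ocn+ arrays left of Osx+ arrays. Endothelial, neutrophil and osteoclast markers are above their mean in every Ocn+ array, and Stc1 and Stc2 show their largest distances of opposite sign in Osx+ replicate 1 and Ocn+ replicate 3.

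The arrays held RNA of other cells besides bone-forming ones. Bone matrix genes were bright in all 7 arrays, with Col1a1 at 14.91 to 14.98 in Ocn+ arrays and 14.94 to 15.05 in Osx+ arrays, and osteocalcin genes were not analysed here. The neutrophil list mean was 10.34, 10.50 and 10.49 in Ocn+ arrays, against 8.63 ± 1.14 (SD, n = 4) and a lowest value of 7.35 in Osx+ arrays, with 12 of 14 measured markers above 0. The osteoclast list mean ranged from 10.36 to 10.69 in Ocn+ arrays, against 8.22 to 10.16 in Osx+ arrays, with 9 of 9 above 0. The macrophage list mean ranged from 9.16 to 10.30 in Ocn+ arrays, against 10.40 to 11.62 in Osx+ arrays, with 11 of 13 below 0. Markers of mural cells around vessels ranged from 9.28 to 10.17 in Ocn+ arrays, against 8.50 to 10.04 in Osx+ arrays. Their part in the results for the 8 genes was not tested.

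Over the 12393 genes tested 52.7% had a difference above 0, with a median of 0.02, a share to set beside the counts below. A wider set of 92 genes from the same pathways held 74 measured genes, of which 46 had a difference above 0 and 28 below, with a median of 0.09. None passed in limma (smallest adjusted p = 0.911, 4 with an unadjusted p under 0.05), where 658 of 12393 genes had such a p. Without overlap 5 were higher in Ocn+ arrays, against 4.37% of all genes, and 3 were lower, against 2.53%, together 10.8% of the 74. Per list, the 2 genes of smallest p are named, with differences in log2 units.

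Among 9 measured genes of pyrophosphate and extracellular nucleotides, 7 were above 0. The nucleoside transporter Slc29a1 differed by 0.50 (SE 0.28) and the ectonucleotidase Entpd2 by 0.66 (SE 0.72). The count was 4 of 9 without Ocn+ replicate 1, with a median of -0.07 in place of 0.11, and 5 to 7 of 9 without each other array. Among 7 phosphate transporters 4 were above 0, and Slc37a2, a sugar phosphate exchanger, differed by 1.19 (SE 0.53) and Slc25a3, the mitochondrial phosphate carrier, by 0.13 (SE 0.13), both without overlap. The median, 0.01, was below 0 without Osx+ replicate 2 or 4. Slc37a2 is abundant in osteoclasts and macrophages, and its lowest value, 9.08, was in Osx+ replicate 4, the array with the lowest osteoclast list mean, 8.22. The macrophage list mean ran the other way, at 9.90 in Ocn+ and 11.05 in Osx+ arrays. What part either cell type has in the Slc37a2 signal was not tested. Slc34a1 and Slc34a2, sodium phosphate transporters of epithelia such as kidney and gut, chosen after their values were seen, lay between 4.02 and 5.38 in all arrays.

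Among 10 genes of phosphatases and phosphocholine 6 were above 0, with Chpt1, a choline phosphotransferase, at 0.46 (SE 0.38) and Phospho2, the relative of Phospho1, at -0.31 (SE 0.26). Among 14 genes of sphingomyelin and ceramide 8 were above 0, with the sphingomyelin synthase Sgms1 at 0.38 (SE 0.33) and the sphingomyelinase Smpd2 at 0.43 (SE 0.37). The lists' medians were 0.09 and 0.08, and 0 of their genes were without overlap. With 1 array left out the medians were -0.02 to 0.04 and 0.02 to 0.11, the first being below 0 without Ocn+ replicate 2 and without Osx+ replicate 1 or 4.

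The 7 measured genes of mineral inhibitors and vitamin K had a median of 0.65, the highest of these lists, and 7 of 7 were above 0. Ggcx, the vitamin K-dependent carboxylase that modifies Mgp and osteocalcin, stood at 10.36, 10.88 and 10.63 in Ocn+ arrays, against 9.75, 10.20, 9.62 and 10.33 in Osx+ arrays. Its groups were apart by a small margin, and the difference was 0.65 (SE 0.24, limma adjusted p = 0.911). Gas6, a secreted protein carboxylated by the same enzyme, differed by 0.84 (SE 0.32). Mepe, a mineral inhibitor of osteocytes, named after its values were seen, was the other gene without overlap (2.61, SE 1.08). With 1 array left out at a time, 5 to 7 of the 7 were above 0, and the median was 0.52 to 0.72.

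Of 12 genes around the stanniocalcins and calcium 6 were above 0. The calcium-binding protein Calb1 differed by -0.43 (SE 0.20), without overlap but at signals of 3.53 to 4.45, near the floor, and the vitamin D receptor Vdr by 0.67 (SE 0.44). The difference for Pappa, the protease named above and picked with its values known, was 0.25 (SE 0.37). Of 15 matrix vesicle genes 8 were above 0 with a median of 0.03. The calcium list had a median of 0.04, which was below 0 without Ocn+ replicate 2 or 3 and without Osx+ replicate 1 or 3, and the matrix vesicle median was below 0 without Ocn+ replicate 2 or 3 and without Osx+ replicate 1. The carbonic anhydrase Car12 was lower in Ocn+ arrays without overlap (-1.11, SE 0.47), and the annexin Anxa7 higher by 0.23 (SE 0.14).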

How the data were processed

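The deposited table holds log2 signals of probe sets that the authors obtained by RMA, per the submitters' processing notes, a method that corrects background, equalizes array quantiles and summarizes probes. The sources used here give no software version. Per the labels' protocols sorted-cell RNA was amplified as cDNA (NuGen Ovation V2) before labelling, which can change the balance between probe sets of a gene. Detection calls were not used, and arrays have no read depth: their number limits precision. Control probe sets (64) and the 691 with several symbols were left out. Among the rest 20380 had 1 symbol, and 20351 of these took their symbol from a match by Entrez identifier.

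Ocn+ minus Osx+ was tested in limma 3.58.1 (R 4.3.3), 2-sided, over 12393 genes, each gene by its brightest probe set. Single values were compared by exact permutation (35 arrangements). The fit was checked on simulated data. The genes described and all lists were chosen with earlier results of these data known. The 2 pathway genes of smallest p per list were named, and the 2 nearest profiles of each gene ranging over more than 1 log2 unit, leaving out predicted genes and clone names. Same-numbered arrays were not treated as pairs in the main fit, since the labels state no pairing. Their deviations from group means were correlated at 0.63, 0.45 and -0.30. Those of differently numbered Ocn+ and Osx+ arrays were correlated at -0.68 to 0.57, so these values do not settle whether the numbers mark pairs. The alternatives tried are given at the end.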

Additional observations from a re-analysis of the deposited data

How the results depend on the processing

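Of the measured genes 0 passed in limma under every alternative run. The genes tested were 8, or 7 with the dimmer genes up to the median left out, which removes Stc1. With all probe sets tested, they were read by 13 probe sets. The alternatives were the replicate block, each array left out, array weights, a trended robust prior, 2 filters on dim genes and median centring. They also included repeated quantile normalization, other choices of probe set, a threshold of 0.1 and the Xist class. Over all genes 0 were called with equal weights and 97 with array weights, 19 among the high-Xist arrays, and 0 to 3 with an array left out (3 without Osx+ replicate 2 and 3 without Osx+ replicate 3). The count of the 8 genes without overlap, 1 over all arrays, was 1 to 6 with an array left out; it was 6 when Ocn+ replicate 1 or Osx+ replicate 4 was omitted, 2 without Osx+ replicate 3 and 1 without each of the rest. Fewer arrays overlap less often, and 9.46% to 15.1% of all genes were then without overlap. Mgp changed sign with array weights (0.046), among the high-Xist arrays (0.031) and without Osx+ replicate 1 (0.033), within a range of -0.11 to 0.033 with an array left out. The other 7 genes kept their sign in all alternatives run. For Slc20a1 by its other probe set, also that of largest variance, the difference was -0.0009 (SE 0.63), too near 0 for a sign to be read. With the replicate block, in which Osx+ replicate 4 has no partner and adds nothing, Stc1 differed by 1.66 (limma adjusted p = 0.400) and Stc2 by -1.40 (limma adjusted p = 0.530). The labels do not say whether same-numbered arrays share more than a number. With array weights Stc1 differed by 1.07 (limma adjusted p = 0.173) and Stc2 by -0.84 (limma adjusted p = 0.218). With the Xist class as a term they differed by 1.20 (limma adjusted p = 0.246) and -1.17 (limma adjusted p = 0.195). The largest array weight was 6.02, of Ocn+ replicate 2, and the smallest 0.24, of Osx+ replicate 1. Slc20a1 differed by less than 0.01 with its other probe set, and the cause was not tested. The other Stc1 probe set, with a difference of 0.10, lay near the floor and is no second reading of Stc1. Signals near 3 to 4 lie at the floor of the arrays, where differences cannot be read.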
